A study of Mus musculus with 36 samples.

Results

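Hearts of mouse embryos at embryonic day 10.5 (E10.5) were compared with hearts of young adult mice, 10 weeks old, to find which genes, grouped by function and by cell type, differed most between the earliest and the mature stage of a heart development series. The comparison took the 3 E10.5 arrays and the 3 young adult arrays, 6 of the 36 arrays of the series, assigned to their stage by the labels alone. All animals were OF1 (Oncins France 1) mice, kept without any named treatment or genetic change, and each array held RNA of homogenized heart tissue. All 3 E10.5 samples were of mixed sex, whereas the young adult samples were 1 female, 1 male and 1 of mixed sex. Values of single arrays are given below in the order E10.5 samples 1, 2 and 3 and then female, male and mixed young adult samples. The samples of a stage were separate biological replicates, and how many hearts made up a mixed-sex sample is not given in the sources used here. Array numbers in the sample names differ between the stages, and whether the stages were processed together cannot be told apart from age. E11.5 hearts (3 mixed-sex arrays) and old adult hearts (1 female, 1 male and 1 mixed-sex array; 14 months old in the labels and of a younger age in the methods) served as another pair of stages that shared no array with the main comparison.

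At E10.5 the mouse heart is a looped tube that already beats and whose chambers are starting to form. Its wall holds dividing cardiomyocytes around an inner endocardium, with a layer of extracellular matrix called cardiac jelly between them, and an outer epicardium that is only beginning to spread over the surface. Coronary vessels, most fibroblasts and most resident immune cells arrive later, and blood at this age carries primitive red cells made in the yolk sac. The adult heart consists of large cardiomyocytes that rarely divide, filled with sarcomeres and mitochondria, among a dense capillary bed, fibroblasts and macrophages.

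Expression was read on a 3′ oligonucleotide array with 45101 probe sets for 20701 genes, as deposited log2 intensities. A gene was counted as expressed when its probe set had a mean above 5 in at least 1 of the 12 stages, which held for 11330 genes. Differentially expressed genes (DEGs) were expressed, had an adjusted p below 1e-05 and differed by more than 2 on the log2 scale, which is 4-fold. Because tissue was measured in bulk, fewer cells of a type and less RNA per cell cannot be told apart. The number of arrays limits the precision of each stage mean. Level differences are written as E10.5 minus young adult on the log2 scale, with the standard error of the limma fit where an error is given.

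The scale of the arrays differed between the stages. The bacterial transcripts added before hybridization averaged 9.90 ± 0.39 (SD, n = 3) at E10.5 and 12.17 ± 0.22 in young adult hearts, a difference of -2.27. The poly-A transcripts added to the RNA differed by -2.65. In the opposite direction, the median of probe sets with a mean above 5 over all arrays was 0.53 higher at E10.5. It was 6.68 ± 0.07 at E10.5 and 6.15 ± 0.06 in young adult hearts. The median difference of expressed genes was 0.34 as deposited and -0.19 after each array was centred on that median. Lists of genes are therefore given on both scales in the text, as deposited first and after centring second, and a gene was said to differ on both scales when its adjusted p was below 0.05 with the same sign before and after centring. On a scale set by the added bacterial transcripts every difference would be 2.27 higher, and 441 of the 563 genes called lower as deposited lie below that shift. The third E10.5 array stood apart in its controls, with 10.35 against 9.68 and 9.68 for the bacterial transcripts and a 3′ minus 5′ difference of 3.95 for *Gapdh* against 2.25 and 2.19. Without it, 1113 genes were called higher and 551 lower.

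Markers of the labelled tissue and sexes were then read. The ventricular light chain *Myl2* read 13.57, 13.57 and 13.27 at E10.5 and 13.23, 13.15 and 13.43 in young adult hearts, and the natriuretic peptide *Nppa* read 11.88, 12.20 and 11.47 at E10.5 and 11.68, 12.33 and 12.05 in young adult hearts. The extraction notes in the labels name liver, but albumin (*Alb*) stayed below 5 on every array, at 3.45, 3.05 and 3.30 at E10.5 and 3.63, 3.98 and 4.54 in young adult hearts. Of 17 liver markers on the array 4 reached the limit and 3 were called lower at E10.5, *Serpina1b* (-2.70), *Rbp4* (-2.23) and *Ahsg* (-2.14), with a mean level of the list of 3.16 to 3.32 on the E10.5 arrays and 4.89 to 5.51 on the young adult arrays. *Xist*, transcribed from the inactive X chromosome of females, read 9.76, 2.21 and 9.71 in the female, male and mixed young adult hearts and 8.23, 9.23 and 9.29 in the mixed E10.5 samples. The Y-linked *Ddx3y* read 3.53, 8.01 and 5.38 in the young adult hearts and 7.37, 7.12 and 7.16 at E10.5, so each E10.5 array held both transcripts. Correlations between arrays of the same stage lay between 0.9736 and 0.9947, and those between the stages lay between 0.8518 and 0.8727.

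In total 1041 genes were DEGs with a higher level at E10.5 and 563 with a lower level, which is 9.19% and 4.97% of expressed genes. After centring the split turned to 515 higher (4.55% of expressed genes) and 922 lower (8.14%). Centring on the median of all probe sets, expressed or not, moved it the other way, to 1219 higher and 495 lower. Centring on probe sets with a mean above 5 over all arrays took the same 0.53 from every difference, so it could add lower calls but hardly remove them. All 563 genes called lower as deposited were thus also called lower after it. Of the 1041 called higher, 515 were called higher on both scales. A difference on both scales at the looser limit of 0.05 was found for 3514 genes higher at E10.5 (31.0% of expressed genes) and 3095 lower (27.3%). The 3 arrays of one stage did not overlap with the 3 of the other in 74.9% of expressed genes, so non-overlap by itself was the usual case here. Among the DEGs, 96 of the higher and 130 of the lower genes differed by more than 16-fold. The level in the low stage was under 5 for 53.0% of the higher and 68.0% of the lower DEGs, so a fold change of these genes also depends on the array's floor. A gene that is low in one stage entered the expressed set through a stage in which it is high, so for lists low at E10.5 the share of expressed members called lower is partly set by the limit of 5. Counts of called members are to be read against 9.19% higher and 4.97% lower. For 60 DEGs the expressed probe sets of the gene had both signs, and each gene is given by its probe set with the highest level. Among genes named below this holds for *Igf2r*, *Mycn*, *Gata6*, *Rbm24* and *Trdn*. Besides genes taken by a fixed rule, list members were named for their known roles after their values were seen.

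The largest increases at E10.5 were those of embryonic globins. *Hbb-y*, a beta-like globin of primitive red cells, read 13.39, 13.64 and 13.78 at E10.5 and 3.01, 3.44 and 2.84 in young adult hearts, a difference of 10.51 ± 0.37 (adjusted p = 1.8e-20). *Hbb-bh1* followed with 9.20 ± 0.29 and the zeta globin gene *Hba-x* with 7.27 ± 0.31. The slow skeletal troponin I *Tnni1*, the inhibitory troponin of the fetal heart, read 10.87, 11.07 and 10.16 at E10.5 and 4.0, 4.23 and 3.82 in young adult hearts, a difference of 6.69 ± 0.32. The growth-related imprinted genes *H19* (6.46) and *Plagl1* (6.19), the chromatin architectural gene *Hmga2* (6.21) and the genome maintenance genes *Fignl1* (5.91) and *Trip13* (5.87) were among the 10 highest, together with *Bex4* at 5.72.

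The largest decreases at E10.5 were in a sarcomere gene and in genes of capillaries and connective tissue. The M-band protein *Myom2* read 2.89, 2.37 and 2.54 at E10.5 and 11.85, 11.88 and 12.08 in young adult hearts, a difference of -9.34 ± 0.35 (adjusted p = 4.5e-20). The fatty acid carrier *Fabp4* read 3.35, 2.87 and 3.28 at E10.5 and 12.39, 12.31 and 12.23 in young adult hearts, a difference of -9.15 ± 0.42. Both genes stayed below 4 on all 3 E10.5 arrays. The rest of the 10 lowest were the matrix genes *Dpt* (-8.47), *Mgp* (-7.88) and *Ogn* (-7.34), the metalloproteinase inhibitor *Timp4* (-7.88), the flavin monooxygenase *Fmo2* (-7.43), the mitochondrial creatine kinase *Ckmt2* (-7.09), the nuclear long non-coding RNA *Neat1* (-6.68) and the oxygen-binding *Mb* (-6.50).

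**Figure D1:**
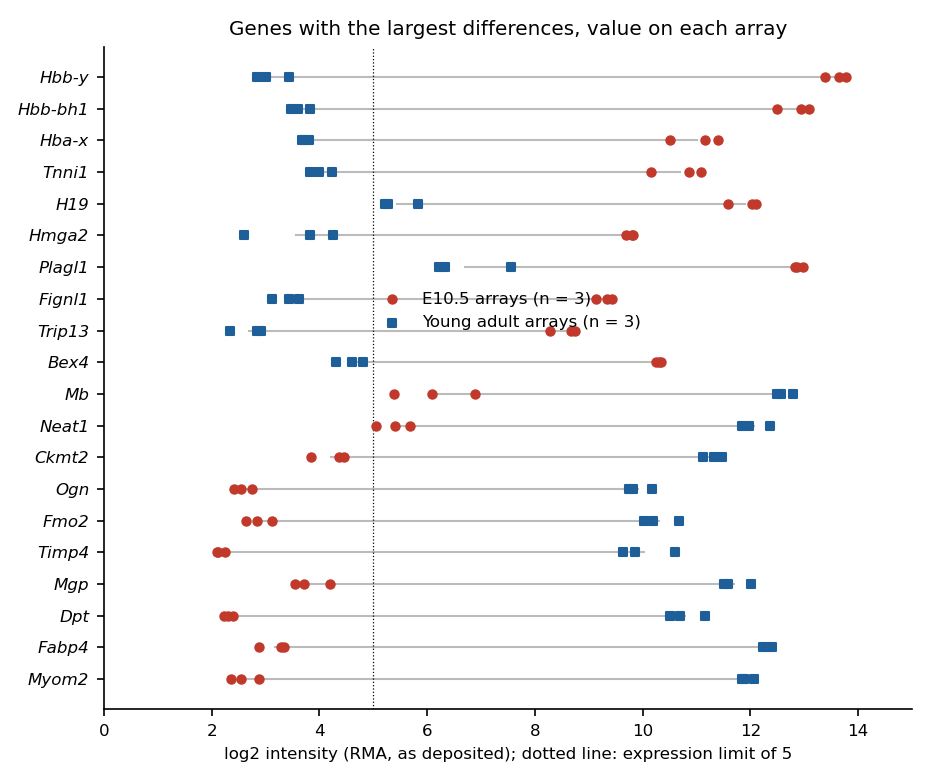
Log2 intensity (horizontal axis) of the 10 genes with the highest and the 10 with the lowest difference among DEGs, on each of the 3 E10.5 arrays (circles) and 3 young adult arrays (squares), with a grey line between the stage means and a dotted line at the expression limit of 5. No gene shown has arrays that overlap between the stages, and *Plagl1* is the one higher gene besides *H19* whose 3 adult arrays all lie above the limit, from 6.22 to 7.56.

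The same fit was read for the other pair of stages, which shares no array with the main one. In E11.5 minus old adult hearts, 687 genes were higher (6.06% of expressed genes) and 641 lower (5.66%). Of the 1041 genes higher at E10.5, 554 were also DEGs with a higher level at E11.5, which is 53.2% of the former and 80.6% of the latter. Of the 563 lower genes, 442 were shared, 78.5% of the former and 69.0% of the latter. The sign was opposite for 3 of the higher and 1 of the lower genes, without a call. *Hbb-y* differed by 11.11, *Tnni1* by 5.89, *Myom2* by -8.11 and *Fabp4* by -7.58 in that pair of stages. An exception was the integrin *Itga8*, with -2.93 between E10.5 and young adult and 0.04 between E11.5 and old adult.

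**Figure D2:**
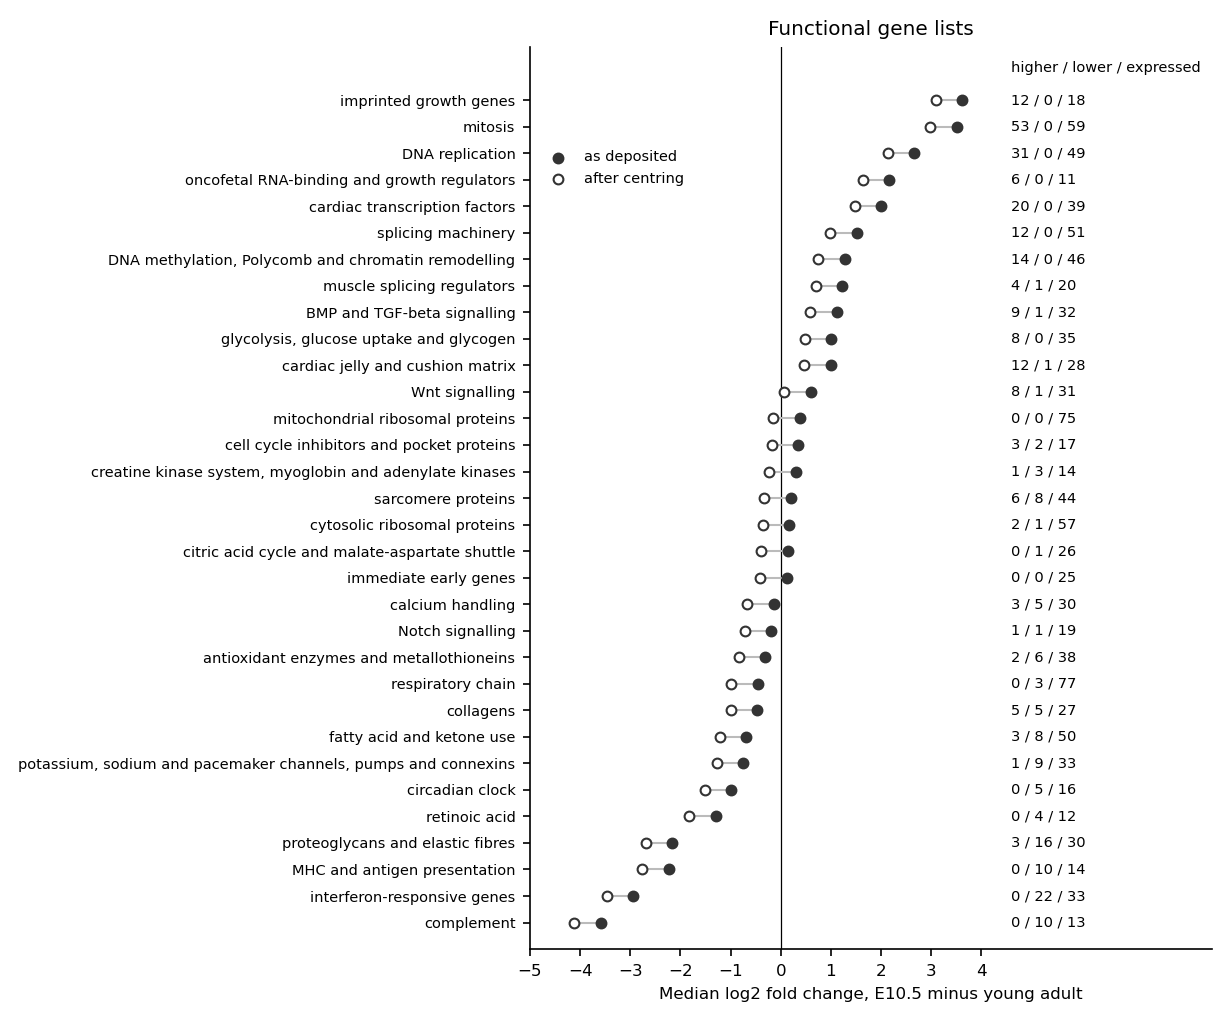
Median log2 fold change of the expressed genes of 32 functional lists, E10.5 minus young adult, as deposited (filled) and after centring each array (open), with the number of DEGs higher at E10.5, lower at E10.5 and the number of expressed genes at the right. Medians run from 3.62 for imprinted growth genes to -3.59 for complement, and 7 lists near the middle change sign with the scale.

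Genes of cell division stood at the upper end. In mitosis, where chromosomes are condensed, attached to the spindle and parted, 53 of 59 expressed genes were DEGs, all higher at E10.5, against 9.19% of expressed genes, and 57 were higher on both scales. After centring 46 were called, all higher. The median difference was 3.51, or 2.98 after centring. *Ube2c*, which loads ubiquitin for the anaphase-promoting complex, read 9.49, 9.67 and 9.29 at E10.5 and 3.19, 4.06 and 4.11 in young adult hearts, a difference of 5.70 ± 0.33. The centriole duplication kinase *Plk4* read 9.29, 9.03 and 9.25 at E10.5 and 4.07, 3.43 and 3.40 in young adult hearts. The condensin subunit *Smc2* read 9.62, 9.66 and 9.17 at E10.5 and 4.03, 4.53 and 3.65 in young adult hearts. The E10.5 arrays of these 3 genes all lay above 9 and the adult arrays all below 5. Also called were *Top2a* (4.99), *Cdk1* (4.74), *Ccnb2* (4.66), *Birc5* (4.59), *Ccna2* (4.50), *Mki67* (4.03), *Cdc20* (3.91), *Plk1* (3.36) and *Aurkb* (3.30). The exceptions were *Foxm1*, a transcription factor of this programme, at -0.09, and *Cdc25b*, a phosphatase that activates cyclin-dependent kinases, at 0.82, besides *Bub3* (1.66), *Nuf2* (1.48), *Mybl2* (1.23) and *Cdc25c* (1.11), which were higher on both scales below the fold limit.

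Many promoters of these genes carry a short element, the cell cycle genes homology region (CHR, TTTGAA), next to CCAAT boxes, through which the DREAM complex is known to hold mitotic genes down in resting cells. Promoters were taken from RefSeq (GRCm38.p6), 250 bases before to 50 after each start, and searched on both strands. TTTGAA occurred in at least 1 promoter of 32 of the 48 mitosis genes with a RefSeq promoter (66.7%), of 7 of 40 DNA replication genes (17.5%) and of 14.2% of expressed genes with a promoter, and in 17.9% of all promoters. CCAAT occurred for 36 of 48 mitosis genes (75.0%), 23 of 40 replication genes (57.5%) and 42.8% of expressed genes, and in 37.4% of all promoters. These are matches of letters, not binding sites. The promoters of 5 called genes that act from entry into mitosis to anaphase are shown, to let the element be seen in its surroundings. They were picked among genes with a match, so their likeness was set by the search and is not a result. Capitals mark TTTGAA, or its reverse complement TTCAAA, in 30 bases of the gene's strand.
Cdc20, chr4:118437344-118437373, minus strand: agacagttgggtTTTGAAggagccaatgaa
Ube2c, chr2:164769888-164769917, plus strand: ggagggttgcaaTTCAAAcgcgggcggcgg
Plk1, chr7:122159453-122159482, plus strand: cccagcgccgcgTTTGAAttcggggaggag
Ccnb2, chr9:70421533-70421562, minus strand: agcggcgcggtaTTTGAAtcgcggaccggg
Cdk1, chr10:69352910-69352939, minus strand: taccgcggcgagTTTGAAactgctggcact
In these stretches the element began 18 bases before the annotated start of *Cdc20*, 29 before that of *Ube2c* and 15 before that of *Cdk1*, and lay after the start of *Plk1* and *Ccnb2*. The promoters of *Ccnb2* and *Cdk1* hold a further match that is not shown, 167 and 71 bases before the start.

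DNA replication genes, which license origins, supply nucleotides and copy DNA, followed with 31 DEGs of 49 expressed genes, all higher at E10.5 (median 2.66, 2.14 after centring). The small subunit of ribonucleotide reductase *Rrm2* read 10.17, 10.18 and 10.21 at E10.5 and 4.54, 5.90 and 5.10 in young adult hearts, a 32.2-fold difference. The checkpoint mediator *Clspn* differed by 4.07 ± 0.15 and the origin-firing kinase subunit *Dbf4* by 4.05 ± 0.21. All 6 subunits of the replicative helicase were DEGs, from *Mcm6* at 2.87 to *Mcm3* at 3.66. Subunits of the origin recognition complex were less uniform. *Orc6* was called at 3.01, while *Orc1* at 0.20 and *Orc2* at 0.61 were not.

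Inhibitors of the cell cycle, which hold cells back from division, gave few calls. The imprinted inhibitor *Cdkn1c* read 12.33, 12.38 and 12.24 at E10.5 and 8.10, 8.01 and 8.27 in young adult hearts, and the pocket protein *Rbl1* differed by 3.42 ± 0.27. Lower at E10.5 were *Rgcc* (-4.22) and *Txnip* (-3.0), an inhibitor of thioredoxin. In all, 3 of 17 expressed members were higher and 2 lower as deposited, beside 9.19% and 4.97% of all expressed genes, and 2 higher and 3 lower after centring (medians 0.35 and -0.18). The pocket protein of resting cells *Rbl2* and the tumour suppressor *Rb1* differed by 0.35 and 0.30 without a call, and *Cdkn1a* by -0.61.

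Imprinted growth genes, expressed from a single parental allele and many of them active before birth, had the highest median of the functional lists, 3.62 (3.10 after centring). Of 18 expressed members, 12 were DEGs, all higher at E10.5, and 16 were higher on both scales. *H19*, a long non-coding RNA, read 12.03, 12.11 and 11.58 at E10.5 and 5.83, 5.27 and 5.22 in young adult hearts. *Plagl1*, a zinc finger factor, read 12.87, 12.83 and 12.97 at E10.5 and 7.56, 6.33 and 6.22 in young adult hearts. *Mest* differed by 5.11 ± 0.34, although its E10.5 arrays ranged from 10.37 to 11.64. The growth factor *Igf2* (3.69) and its clearing receptor *Igf2r* (3.80) were both higher, as were *Peg3* (4.30), *Slc38a4* (3.96) and *Grb10* (3.56) and the non-coding *Rian* (3.04) and *Meg3* (2.51). *Gpc3*, an X-linked growth regulator on the same list, differed by 4.28. *Dlk1* (0.46) and *Ndn* (0.61) did not pass.

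Regulators named for their activity in embryonic and tumour cells gave 6 DEGs of 11 expressed members, all higher at E10.5, and 5 higher and 0 lower after centring (medians 2.16 and 1.64). *Hmga2*, which bends AT-rich DNA, read 9.80, 9.70 and 9.82 at E10.5 and 2.60, 3.83 and 4.26 in young adult hearts, and the mRNA-binding *Igf2bp2* read 9.07, 8.94 and 9.62 at E10.5 and 3.38, 4.52 and 4.51 in young adult hearts. The adult values of both were below 5 on every array. Called as well were the SOXC factors *Sox11* (3.78) and *Sox4* (3.09) and *Mycn* (3.07), while *Myc* at 0.96 was not. *Lin28a* and *Lin28b*, which block maturation of let-7 microRNAs, did not reach the expression limit.

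Chromatin and RNA-processing genes were shifted towards the embryo by smaller amounts. Among 46 expressed genes of DNA methylation, Polycomb and remodelling, 14 were DEGs as deposited, all higher, against 7 higher and 2 lower after centring (medians 1.28 and 0.75). *Uhrf1*, which brings the maintenance methyltransferase to replicated DNA, differed by 3.92 ± 0.23, and the methyltransferase *Dnmt1* by 2.40. The alternative catalytic subunits of Polycomb complex PRC2 moved apart. *Ezh2* read 8.43, 8.47 and 8.23 at E10.5 and 5.30, 5.33 and 4.81 in young adult hearts, and *Ezh1* read 6.02, 6.16 and 5.83 at E10.5 and 7.66, 7.64 and 7.71 in young adult hearts. Within arrays their difference changed by 4.90, or 29.8-fold. The splicing machinery had 12 of 51 expressed genes called as deposited, all higher, and 6 higher and 0 lower after centring (medians 1.52 and 0.99), led by *Srsf10* (3.55), *Snrpf* (3.03) and *Hnrnpl* (2.79).

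Regulators of muscle splicing gave 4 higher and 1 lower of 20 as deposited, and 3 higher and 1 lower after centring (medians 1.22 and 0.69). *Mbnl3* (3.97), the neural polypyrimidine-tract protein *Ptbp2* (3.54) and the muscle regulator *Rbm24* (2.93) were higher at E10.5. *Rbfox1*, a splicing factor of mature muscle and neurons, read 3.28, 3.77 and 3.61 at E10.5 and 5.68, 6.0 and 6.47 in young adult hearts. It was 2.50 lower at E10.5. The related *Rbfox2* differed by 0.94, and *Mbnl1*, the main muscleblind protein of adult heart, by -1.27 on the deposited scale, lower on both scales. For *Rbm24* the expressed probe sets ran from -1.37 to 2.93, so its direction depends on the probe set.

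Cardiac transcription factors, which specify and pattern the heart, were higher at E10.5 as a list but unevenly so. Of 39 expressed factors, 20 were DEGs, all higher, and 28 were higher on both scales (median 2.0, 1.47 after centring). After centring 11 were called. *Tbx18*, active in epicardium and sinus horn, read 7.34, 7.54 and 7.15 at E10.5 and 4.47, 2.86 and 3.04 in young adult hearts. The homeobox gene *Irx5* differed by 3.71 ± 0.23. The core factors *Nkx2-5* (2.93), *Hand2* (2.41), *Gata6* (2.29), *Tbx20* (2.12) and *Gata4* (2.07) were DEGs as deposited, of which only *Nkx2-5* kept a log2 difference above 2 after centring, at 2.40. *Tbx5* (1.57) and *Isl1* (1.56), a marker of second heart field progenitors, were higher on both scales below the fold limit. Not passing were *Mef2c* (0.33), *Mef2a* (0.31), *Hand1* (-0.12), *Tbx3* (-0.15) and *Hopx* (-0.64).

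Signalling pathways that shape the chambers and valves were mixed. For bone morphogenetic protein (BMP) and TGF-beta signalling, 9 of 32 expressed genes were higher and 1 lower as deposited, and 6 higher and 1 lower after centring (medians 1.12 and 0.59). Among ligands *Bmp5* (3.34), *Bmp7* (2.70) and *Bmp2* (2.28) were higher, whereas *Bmp6* (-1.26) and *Tgfb3* (-1.46) were lower on both scales without a call. Of the receptors, *Acvr1* (2.93), *Tgfbr1* (2.62) and *Acvr1b* (2.34) were higher and the endothelial *Acvrl1* was lower, at 2.88, 2.80 and 3.11 at E10.5 and 6.05, 5.57 and 5.96 in young adult hearts. The inhibitory SMAD *Smad6* differed by 3.59 ± 0.26. *Bmp10*, the trabecular ligand, did not reach the expression limit on this array.

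In Wnt signalling 8 of 31 expressed genes were higher and 1 lower as deposited, and 4 higher and 2 lower after centring (medians 0.59 and 0.07). The non-canonical ligand *Wnt5a* read 7.97, 7.84 and 8.17 at E10.5 and 4.75, 3.45 and 3.99 in young adult hearts, and its receptors *Ror1* (2.52) and *Ror2* (2.37) were also higher. The secreted inhibitor *Wif1* read 1.70, 2.32 and 1.77 at E10.5 and 8.92, 7.21 and 7.37 in young adult hearts. It was 5.90 lower at E10.5, with a female value above the other adult arrays. Notch genes gave 1 higher and 1 lower of 19 as deposited, about the shares over all expressed genes, and 1 higher and 2 lower after centring (medians -0.19 and -0.71). *Hey2*, a Notch target of compact ventricular muscle, read 8.43, 8.14 and 8.10 at E10.5 and 4.38, 3.41 and 4.0 in young adult hearts. The endothelial receptor *Notch4* was 2.02 lower at E10.5. Retinoic acid genes had 4 DEGs of 12 as deposited, and 0 higher and 5 lower after centring (medians -1.30 and -1.83), among them *Aldh1a1* (-2.40), *Rbp4* (-2.23) and *Dhrs3* (-2.23), while *Aldh1a2*, the retinoic acid synthesizing enzyme of the embryonic epicardium, was higher on both scales at 1.63.

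Sarcomere genes, which build the contractile filaments and their anchors, were called in both directions. Of 44 expressed sarcomere genes, 6 were higher and 8 lower as deposited, beside 9.19% and 4.97% of all expressed genes. After centring, which adds lower calls in general, 3 were higher and 13 lower, beside 4.55% and 8.14% (medians 0.20 and -0.33). Core components such as *Myl2* (0.19), *Tnnc1* (0.10), *Tnnt2* (-0.10), *Actn2* (0.48) and *Tpm1* (0.63) did not differ on both scales at an adjusted p below 0.05. Besides *Tnni1*, the Z-disc proteins *Nebl* (3.05) and *Palld* (2.68) were higher at E10.5, as was alpha-cardiac actin *Actc1* (2.03) as deposited. The atrial light chains *Myl7* (1.94) and *Myl4* (1.6) and the beta-myosin heavy chain *Myh7* (1.83) were higher on both scales below the fold limit. Lower at E10.5 were *Myom2* (-9.34), *Tcap* (-4.14), *Myoz2* (-3.46), *Myot* (-3.19), *Cmya5* (-3.09), *Mybpc2* (-3.04), *Trim54* (-2.53) and *Mypn* (-2.31), which include M-band, Z-disc and thick-filament proteins. *Tcap*, the titin cap protein, read 6.67, 6.63 and 6.36 at E10.5 and 10.60, 10.61 and 10.86 in young adult hearts. The titin gene *Ttn* itself differed by -0.56. The alpha-myosin heavy chain *Myh6* has no probe set under that symbol.

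The exchange of troponin I gave the largest measured change among pairs of related genes. The fetal form *Tnni1* is given above, and the adult cardiac form *Tnni3* read 10.61, 10.36 and 10.20 at E10.5 and 12.32, 12.32 and 12.32 in young adult hearts. The difference of *Tnni1* minus *Tnni3* within arrays changed by 8.62 (SD 0.38 at E10.5 and 0.20 in young adult hearts, n = 3 each; exact two-sided permutation test, p = 0.1, the smallest value 3 against 3 arrays allow). The adult *Tnni1* values lie under the limit of 5, so this change is bounded by the array's floor and may be larger. A difference within an array does not change when all values of the array are shifted by the same amount. The pairs were not recomputed under scalings of another kind. Of 29 pairs of an embryonic and an adult family member, 25 were measured and 21 had both genes expressed. Of those 21, 18 changed towards the embryonic member with no overlap between the stages, and 3 overlapped. One of these 3, *Pygb* minus *Pygm*, had a change below 0 (-0.34). Among pairs with a gene under the limit, *Camk2b* minus *Camk2a* went towards the adult member without overlap (-1.66). Beside them, arrays did not overlap in 74.9% of expressed genes.

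**Figure D3:**
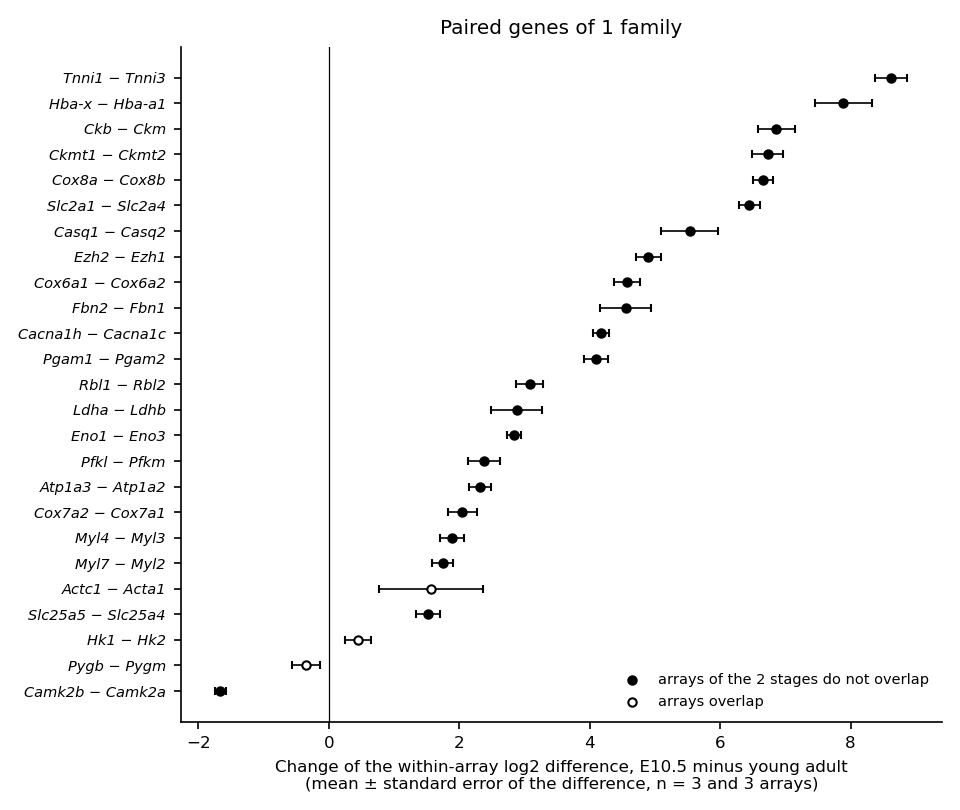
Change of the log2 difference between 2 genes of a family within each array, E10.5 minus young adult, as the mean with its standard error over 3 and 3 arrays; filled points have no overlap between the stages. *Tnni1* minus *Tnni3* leads with 8.62, and *Hk1* minus *Hk2*, *Pygb* minus *Pygm* and *Actc1* minus *Acta1* overlap.

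Calcium-cycling genes couple the action potential to contraction. *Cacna1h*, a T-type calcium channel, read 7.63, 7.67 and 8.12 at E10.5 and 3.69, 3.48 and 3.19 in young adult hearts, whereas the L-type channel *Cacna1c* differed by 0.18. The within-array difference of the pair changed by 4.18. The sodium-calcium exchanger *Slc8a1* differed by 3.78 ± 0.31, with expressed probe sets from 1.22 to 3.78. On the storage side, the calcium buffer of the sarcoplasmic reticulum *Casq2* read 6.25, 6.51 and 6.49 at E10.5 and 9.91, 9.95 and 10.43 in young adult hearts, and *Trdn* (-2.49), *Hrc* (-2.57) and *S100a1* (-3.53) were also lower. The calcium pump *Atp2a2* (-0.96) and its inhibitor *Pln* (-1.27) were lower on both scales without a call, and the release channel *Ryr2* differed by 0.53. Sarcolipin, *Sln*, an inhibitor of the same pump that is most abundant in atria, read 3.73, 3.32 and 3.43 at E10.5 and 9.41, 9.83 and 9.50 in young adult hearts. In all 3 genes were higher and 5 lower of 30 as deposited, beside 9.19% and 4.97% over all expressed genes, and 3 higher and 6 lower after centring (medians -0.14 and -0.67).

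Ion channels, pumps and connexins were more often lower. Of 33 expressed genes, 9 were lower at E10.5 (background 4.97%) and 1 higher, with a median of -0.75 (-1.28 after centring). *Kcnip2*, the subunit that sets the density of the transient outward potassium current, read 3.55, 3.25 and 3.17 at E10.5 and 7.47, 7.42 and 7.45 in young adult hearts. Its pore subunit *Kcnd2* (-2.56), the ultrarapid potassium channel *Kcna5* (-3.15) and the sodium channel *Scn7a* (-3.30) were lower as well. *Kcnq5* was the only member called higher, at 2.52 as deposited and 1.99 after centring. The main gap junction protein *Gja1* differed by -0.27. *Hcn4*, the pacemaker channel, has no probe set under that symbol.

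Mitochondrial genes were compared next. Of 77 expressed genes of the respiratory chain, which pumps protons and makes ATP, 3 were DEGs as deposited. All 3 were lower at E10.5 and were muscle isoforms of cytochrome c oxidase. After centring 6 genes of the list were called lower and 0 higher. Over all expressed genes 4.97% were called lower as deposited and 8.14% after centring, so neither count stood above those shares. *Cox8b* read 5.81, 5.68 and 4.85 at E10.5 and 11.00, 11.03 and 11.27 in young adult hearts, *Cox6a2* differed by -3.36 ± 0.14 and *Cox7a1* by -2.43 ± 0.38. Their broadly expressed partners *Cox8a* (1.0), *Cox6a1* (1.21) and *Cox7a2* (-0.39) were not called. Within arrays *Cox8a* minus *Cox8b* changed by 6.65, a 101-fold change of the ratio, and *Cox6a1* minus *Cox6a2* by 4.57. Small shifts were wider spread, with 36 genes lower and 2 higher on both scales (backgrounds 27.3% and 31.0%) and a median of -0.46 (-0.99 after centring).

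Fatty acid use, the main fuel route of the adult heart, had 8 DEGs lower and 3 higher of 50 expressed genes, beside 4.97% and 9.19% of all expressed genes, and 3 higher and 12 lower after centring (medians -0.68 and -1.21). Both scales gave a lower level for 29 genes and a higher one for 3, against 27.3% and 31.0%. The lipid droplet protein *Plin5* read 3.11, 3.29 and 3.04 at E10.5 and 8.6, 8.08 and 8.73 in young adult hearts, and the fatty acid transporter *Cd36* read 6.0, 6.04 and 4.94 at E10.5 and 10.51, 10.17 and 10.21 in young adult hearts. Called lower too were *Acacb* (-2.67), *Dgat2* (-2.45), *Lpl* (-2.40), *Fabp3* (-2.27), *Acsl1* (-2.03) and *Crat* (-2.0). The acyl-CoA synthetases moved in both directions, since *Acsl3* (4.18) and *Acsl4* (2.63) were higher at E10.5. The nuclear receptor *Esrrg* was higher at 3.11, its relative *Esrra* was at -0.54, and *Ppara*, a receptor that turns on fatty acid oxidation, was at -2.0, lower on both scales. The coactivator *Ppargc1a* differed by 0.09. AAGGTCA, the element bound by estrogen-related receptors, occurred on either strand in promoters of 7 of 64 respiratory chain genes (10.9%) and of 3 of 42 fatty acid genes (7.14%), against 3.77% of expressed genes and 4.72% of all promoters.

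Glucose uptake and glycolysis tended the other way. Of 35 expressed genes, 8 were DEGs as deposited, all higher at E10.5 (background 9.19%), and 5 higher and 2 lower after centring (medians 1.01 and 0.48). On both scales 18 were higher and 7 lower, against 31.0% and 27.3%. The basal glucose transporter *Slc2a1* read 11.79, 11.77 and 12.18 at E10.5 and 7.33, 7.41 and 7.25 in young adult hearts, a 24-fold difference. The insulin-responsive transporter *Slc2a4* read 6.59, 6.26 and 6.65 at E10.5 and 8.18, 8.41 and 8.50 in young adult hearts. Their within-array difference changed by 6.45, 87.3-fold. The broadly expressed enzymes *Pgam1* (3.26) and *Eno1* (2.02) were DEGs, and the muscle forms *Pgam2* (-0.83), *Eno3* (-0.82) and *Pfkm* (-1.37) were lower on both scales. *Ldha* minus *Ldhb* changed by 2.88. Hexokinases did not follow, since *Hk1* (1.86) and *Hk2* (1.42) were both higher and their difference changed by 0.45 with overlap between the stages (exact permutation p = 0.2).

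Energy transfer by creatine kinase and its relatives gave 1 higher and 3 lower of 14 as deposited, and 0 higher and 3 lower after centring (medians 0.30 and -0.23). The cytosolic muscle enzyme *Ckm* read 3.48, 3.88 and 3.48 at E10.5 and 9.88, 9.84 and 10.32 in young adult hearts, which is 6.4 lower at E10.5. The mitochondrial *Ckmt2* read 3.84, 4.45 and 4.37 at E10.5 and 11.33, 11.12 and 11.47 in young adult hearts. The brain isoform *Ckb* read 8.04, 7.96 and 7.76 at E10.5 and 7.61, 7.49 and 7.27 in young adult hearts, and *Ckb* minus *Ckm* changed by 6.86, a value bounded by the low E10.5 readings of *Ckm*. Myoglobin, *Mb*, read 6.09, 6.89 and 5.38 at E10.5 and 12.80, 12.57 and 12.49 in young adult hearts, with E10.5 arrays further apart than most. A probe set of *Ckm* differed by -0.97, far less than the one with the highest level. The citric acid cycle had 1 DEG of 26, the mitochondrial pyruvate carrier subunit *Mpc1* (-2.65), and its median of 0.14 became -0.39 after centring.

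Ribosomal protein genes showed little difference relative to the scale shift. Among 57 expressed cytosolic ribosomal protein genes, 2 were higher and 1 lower, with a median of 0.17 as deposited and -0.36 after centring. *Rpl3l*, the striated muscle counterpart of *Rpl3*, read 2.23, 2.29 and 2.23 at E10.5 and 7.46, 6.89 and 7.29 in young adult hearts, and *Rpl3* differed by 0.27. *Rps4l* was called higher at 3.95, and its probe set may also read near-identical copies of *Rps4x*. No gene of 75 mitochondrial ribosomal proteins was a DEG by limma, while 38 were higher and 7 lower at an unadjusted p below 0.05. Over all expressed genes, 74.2% had an adjusted p below 0.05. On both scales 22 of the 75 were higher and 7 lower, against 31.0% and 27.3% of expressed genes. The median of 0.38 became -0.15 after centring.

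Cardiac jelly and cushion matrix, the hyaluronan-rich layer between myocardium and endocardium from which valves form, had 12 DEGs higher and 1 lower of 28 as deposited, and 10 higher and 1 lower after centring (medians 1.0 and 0.47). The hyaluronan link protein *Hapln1* read 9.43, 8.97 and 9.41 at E10.5 and 4.2, 3.44 and 3.12 in young adult hearts, and the proteoglycan versican, *Vcan*, read 11.54, 11.51 and 11.58 at E10.5 and 7.45, 6.47 and 6.61 in young adult hearts. The hyaluronan synthase *Has2* differed by 3.05 ± 0.23 and tenascin C, *Tnc*, by 3.64 ± 0.22. The cushion transcription factor *Twist1* was higher at 3.38, whereas *Postn*, a matrix protein of maturing valves, was at 0.09.

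Small leucine-rich proteoglycans and elastic fibre genes stood on the adult side. Of 30 expressed members, 16 were lower at E10.5 and 3 higher (median -2.17, -2.70 after centring). Dermatopontin, *Dpt*, read 2.39, 2.31 and 2.23 at E10.5 and 11.15, 10.50 and 10.70 in young adult hearts, and the calcification inhibitor *Mgp* read 3.72, 4.19 and 3.56 at E10.5 and 12.02, 11.58 and 11.51 in young adult hearts. Decorin, *Dcn*, read 6.97, 7.08 and 7.33 at E10.5 and 12.80, 12.49 and 12.42 in young adult hearts. The female array was the highest of the 3 adult arrays for each of these 3 genes. Of the fibrillins, the embryonic *Fbn2* read 10.29, 10.17 and 10.66 at E10.5 and 5.95, 4.38 and 5.04 in young adult hearts. *Fbn1* differed by 0.70 without a call, so the within-array change of 4.55 came from *Fbn2*. Collagens gave 5 higher and 5 lower of 27 as deposited, and 4 higher and 8 lower after centring (medians -0.47 and -0.99). In E11.5 minus old adult hearts 8 were higher and 2 lower. *Col2a1* (4.16), *Col9a1* (3.32) and *Col13a1* (3.31) were higher, and the collagen VI genes *Col6a3* (-3.06) and *Col6a2* (-2.74) and *Col4a4* (-3.37) were lower. The main fibrillar collagens *Col1a1* and *Col3a1* differed by 0.16 and -0.26.

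Immune genes lay at the lower end of the list order. These lists averaged 4.36, 4.24 and 3.80 at E10.5 and 7.10, 7.68 and 6.68 in young adult hearts, for antigen presentation, complement and interferon-responsive genes. Of 17, 18 and 35 members on the array, 14, 13 and 33 reached the expression limit. Most did so through the adult hearts, so their common direction is partly set by that limit, and the counts and medians are given as a description. DEGs numbered 10, 10 and 22, with medians of -2.23, -3.59 and -2.94, or -2.76, -4.12 and -3.47 after centring. The class I antigen *H2-K1* read 4.46, 5.14 and 4.96 at E10.5 and 9.58, 9.71 and 10.21 in young adult hearts. The class II gene *H2-Aa* read 2.55, 2.55 and 2.76 at E10.5 and 5.94, 6.96 and 7.95 in young adult hearts, with adult arrays spread over more than 1 log2 unit. Class I genes are near-identical copies of each other, so single probe sets may read several of them. Among complement genes *C3* read 3.06, 3.25 and 2.92 at E10.5 and 9.60, 8.91 and 8.09 in young adult hearts and the C1 inhibitor *Serping1* read 4.54, 4.62 and 4.25 at E10.5 and 9.70, 9.61 and 9.16 in young adult hearts.

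Interferon-responsive genes are switched on through an interferon-stimulated response element in their promoters. *Ifi27l2a* read 3.06, 2.85 and 2.81 at E10.5 and 9.48, 8.37 and 8.82 in young adult hearts, the guanylate-binding protein *Gbp2* read 2.31, 2.20 and 2.31 at E10.5 and 7.19, 6.90 and 7.69 in young adult hearts and *Gbp7* differed by -5.18 ± 0.26. The antiviral genes *Ifit1* (-2.94) and *Ifit3* (-2.97) were also called. The transcription factors *Stat2* (-0.96), *Irf7* (-1.35) and *Irf9* (-1.91) were lower on both scales below the fold limit. A core of the element (GAAA, any 2 bases, GAAA, on either strand) was found in promoters of 14 of the 24 genes with a RefSeq promoter (58.3%), against 3.37% of expressed genes, 3.44% of all promoters and 1 of 10 antigen presentation genes. Stretches of 4 promoters are shown with the match in capitals. Their likeness was set by the search pattern and is not a result, and these promoters hold further matches that are not shown.
Ifit1, chr19:34640775-34640804, plus strand: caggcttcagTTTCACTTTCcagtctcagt
Ifit3, chr19:34583363-34583392, plus strand: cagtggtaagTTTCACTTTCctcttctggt
Gbp3, chr3:142559989-142560018, plus strand: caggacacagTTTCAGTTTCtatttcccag
Bst2, chr8:71537577-71537606, minus strand: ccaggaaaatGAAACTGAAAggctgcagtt
*Gbp3* differed by -4.08 and *Bst2*, a tether of viral particles, by -1.95.

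Clock, detoxification and early response genes showed 3 further patterns. Of 16 expressed clock genes, 5 were DEGs as deposited, all lower at E10.5, and 0 higher and 6 lower after centring (medians -0.98 and -1.51). The output factor *Dbp* read 5.15, 5.28 and 5.38 at E10.5 and 10.06, 9.44 and 9.80 in young adult hearts, *Hlf* differed by -3.45 ± 0.19 and *Per2* by -2.22 ± 0.18, whereas *Clock* itself was at 1.04, higher on both scales. The hour of collection is not given in the sources used here, and its part in these values was not tested. Antioxidant and detoxifying enzymes had 6 DEGs lower and 2 higher of 38 as deposited, and 0 higher and 10 lower after centring (medians -0.31 and -0.83), among them the epoxide hydrolase *Ephx1* (-4.41), *Gstt1* (-3.32) and the mitochondrial aldehyde dehydrogenase *Aldh2* (-3.19), while superoxide dismutases *Sod1* (-0.37) and *Sod2* (-0.24) did not pass. No immediate early gene of 25 was a DEG by limma, with 9 higher and 6 lower at an unadjusted p below 0.05. On both scales 3 were higher and 6 lower, against 31.0% and 27.3% of expressed genes. This list had 0 higher and 2 lower calls after centring (medians 0.12 and -0.41). *Fos* read 9.53, 11.20 and 10.85 at E10.5 and 8.84, 7.58 and 7.67 in young adult hearts.

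Cell type markers were then described by list, from 9.20 for primitive red cells to -4.84 for mature capillaries.

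**Figure D4:**
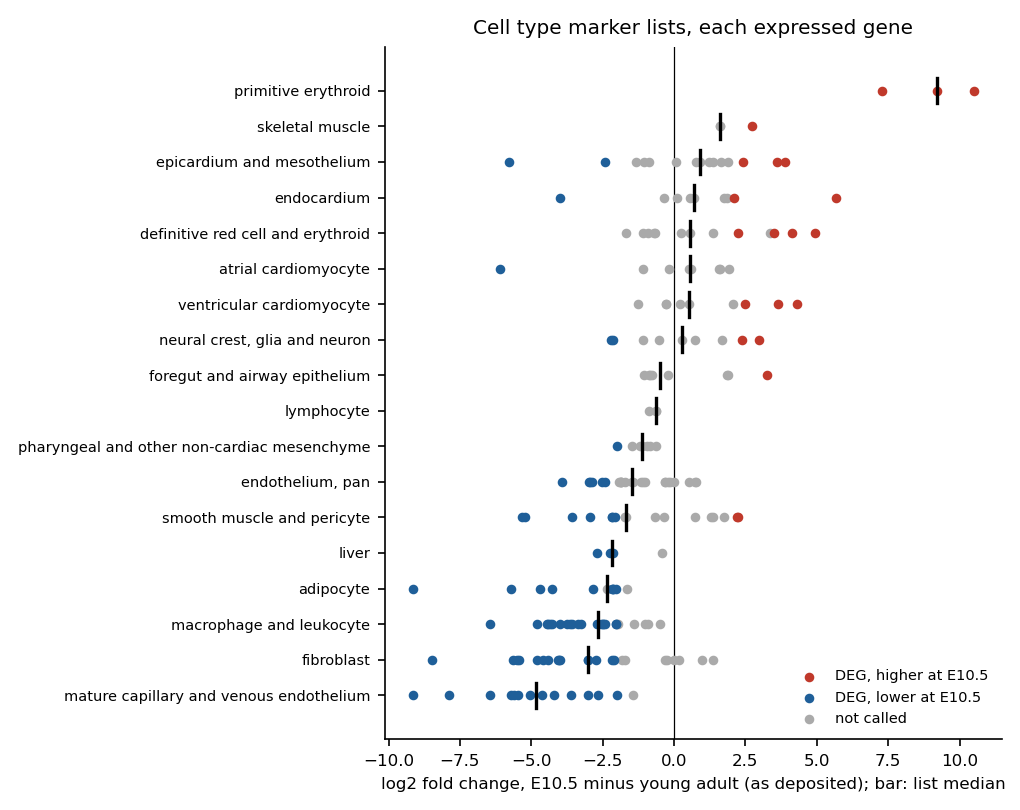
Log2 fold change, E10.5 minus young adult as deposited, of every expressed gene of 18 cell type marker lists, ordered by their medians (black bars); red points are DEGs higher at E10.5, blue points DEGs lower at E10.5 and grey points were not called. Markers of primitive red cells lie furthest to the right, and mature capillary, fibroblast and macrophage markers to the left.

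Blood markers came first. All 3 globin markers of primitive red cells were DEGs, and *Hba-x* read 10.50, 11.39 and 11.15 at E10.5 and 3.68, 3.73 and 3.81 in young adult hearts. The list's mean level was 12.13 to 12.70 on the E10.5 arrays and 3.42 to 3.55 on the young adult arrays. Markers shared by later red cells were mixed, with 4 of 13 called higher as deposited, and 2 higher and 1 lower after centring (medians 0.57 and 0.05). *Hemgn*, a nuclear protein of erythroid precursors, read 6.48, 7.47 and 7.41 at E10.5 and 2.28, 2.11 and 2.13 in young adult hearts, and the anion exchanger *Slc4a1* read 7.68, 8.66 and 8.76 at E10.5 and 4.02, 4.34 and 4.32 in young adult hearts. The first E10.5 array was the lowest of its group for *Hbb-y*, *Hbb-bh1*, *Hba-x*, *Hemgn* and *Slc4a1* alike. The adult beta globin *Hbb-b2* read 4.75, 4.94 and 5.32 at E10.5 and 6.54, 6.91 and 6.56 in young adult hearts, and the adult alpha globin *Hba-a1* stayed below 5 on these arrays at both stages. Adult blood is rich in alpha globin, so this probe set is of little use as a marker.

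Endothelial markers separated into shared and mature ones. Of 25 expressed markers of all endothelium, 6 were DEGs as deposited and 13 after centring, all lower, and 18 were lower on both scales (median -1.49, -2.01 after centring). *Cdh5*, the junction protein of all endothelium, read 6.98, 7.21 and 6.73 at E10.5 and 8.23, 7.85 and 8.12 in young adult hearts, and the VEGF receptor *Kdr* read 7.05, 7.32 and 6.71 at E10.5 and 8.15, 8.15 and 8.22 in young adult hearts. *Tek* (0.74), *Tie1* (-0.20) and *Nos3* (0.00) did not pass on both scales. Of 14 markers of mature capillaries and veins, 13 were DEGs, all lower, with a median of -4.84 (-5.37 after centring). *Gpihbp1*, which anchors lipoprotein lipase on capillaries, read 3.60, 3.89 and 3.79 at E10.5 and 9.17, 9.29 and 9.64 in young adult hearts, and the water channel *Aqp1* read 5.26, 5.43 and 4.83 at E10.5 and 10.93, 10.86 and 10.90 in young adult hearts. The venous clotting factor carrier *Vwf* was 3.0 lower at E10.5 than in young adult hearts. The mean level of the mature list was 4.26 to 4.36 on the E10.5 arrays and 9.06 to 9.19 on the young adult arrays, so most of its members passed the limit of 5 through later stages.

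Of 9 expressed endocardial markers, 2 were higher and 1 lower as deposited, and 1 higher and 1 lower after centring (medians 0.70 and 0.17). *Nfatc1*, the defining factor of valve-forming endocardium, read 6.6, 6.37 and 5.99 at E10.5 and 5.96, 5.4 and 5.50 in young adult hearts. *Npr3* was higher on both scales at 1.86, and *Cytl1* was 4.0 lower at E10.5. Among 15 expressed epicardial markers 3 were higher and 2 lower as deposited, and 2 higher and 2 lower after centring (medians 0.91 and 0.38). The epicardial factor *Wt1* read 6.0, 6.28 and 6.33 at E10.5 and 4.12, 3.47 and 3.77 in young adult hearts, and *Bnc1* read 6.11, 6.43 and 6.18 at E10.5 and 2.86, 2.60 and 2.50 in young adult hearts. *Tcf21*, shared with fibroblasts, was higher on both scales at 1.37, and mesothelin, *Msln*, was lower on both scales at -1.35.

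Stromal markers were mostly lower at E10.5. Fibroblast markers gave 15 DEGs of 23, all lower (median -3.0, -3.53 after centring). Lumican, *Lum*, read 4.35, 4.84 and 4.40 at E10.5 and 10.78, 9.64 and 10.10 in young adult hearts, and *Abca8a* read 3.24, 3.42 and 3.42 at E10.5 and 9.02, 8.88 and 8.66 in young adult hearts. *Pdgfra*, a receptor shared by fibroblasts and embryonic mesenchyme, was higher on both scales instead, at 9.01, 8.95 and 9.04 at E10.5 and 8.62, 7.90 and 7.50 in young adult hearts. In smooth muscle and pericytes 7 of 18 were lower and 2 higher as deposited, and 0 higher and 10 lower after centring (medians -1.69 and -2.22). The smooth muscle myosin *Myh11* read 3.40, 3.27 and 2.94 at E10.5 and 8.56, 8.55 and 8.50 in young adult hearts, and the pericyte regulator *Rgs5* read 5.59, 5.41 and 5.73 at E10.5 and 10.70, 10.43 and 11.22 in young adult hearts. *Mcam* and *Cnn1* (2.22) were the 2 called higher as deposited, while *Acta2* (1.36) and *Tagln* (-0.35) were not called. Embryonic cardiomyocytes are known to express *Acta2*, *Cnn1* and *Tagln*, and the part of cardiomyocytes in these values was not tested.

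The mean level of the macrophage and leukocyte list was 3.74 to 3.77 on the E10.5 arrays and 6.59 to 6.85 on the young adult arrays. Of 32 markers on the array 26 reached the expression limit, most of them through later stages, and 20 of these were DEGs, with 0 higher and 22 lower after centring (medians -2.67 and -3.19). Their common direction is partly set by that limit. *F13a1* read 3.69, 3.20 and 3.16 at E10.5 and 10.10, 9.33 and 9.92 in young adult hearts, and the receptor *Csf1r*, on which macrophages depend, read 4.39, 4.61 and 5.09 at E10.5 and 9.25, 8.97 and 9.21 in young adult hearts. The pan-leukocyte gene *Ptprc* read 2.29, 2.38 and 2.30 at E10.5 and 4.15, 5.65 and 4.87 in young adult hearts, below 5 on 2 of the 3 adult arrays. Of 20 lymphocyte markers on the array, 3 reached the expression limit and none was a DEG by limma (0 higher and 3 lower at an unadjusted p below 0.05). Over all expressed genes, 74.2% had an adjusted p below 0.05. The T cell receptor component *Cd3e*, which did not reach the limit, read 3.83, 3.72 and 4.06 at E10.5 and 4.79, 4.79 and 4.77 in young adult hearts. Macrophage markers moved together with the immune lists above, the C1q genes belong to both the complement and the macrophage list, and the part of macrophages in those lists was not tested.

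Adipocyte markers differed between the adult arrays. Of 17 on the array 11 reached the limit, again mostly through later stages, and 9 were DEGs as deposited, with 0 higher and 11 lower after centring (medians -2.33 and -2.86). Adipsin, *Cfd*, read 2.97, 2.74 and 2.80 at E10.5 and 9.20, 6.19 and 7.20 in young adult hearts, and adiponectin, *Adipoq*, read 2.30, 2.12 and 2.52 at E10.5 and 6.24, 4.02 and 5.17 in young adult hearts. The female value was highest and the male value lowest for both genes, with 1 array per sex. *Fabp4* is in both the adipocyte and the capillary list, and its adult arrays were close together, at 12.39, 12.31 and 12.23. The mean level of the adipocyte list was 3.42 to 3.65 on the E10.5 arrays and 6.61 to 7.57 on the young adult arrays, and its part in the fatty acid list was not tested.

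Chamber and neighbouring tissue markers completed the comparison. Of 9 ventricular markers *Hey2* (4.29), *Mpped2* (3.66) and *Irx4* (2.47) were called higher as deposited, with 2 higher and 0 lower after centring (medians 0.53 and 0.01). *Irx4* lost its call after centring (1.94), 4 of the markers were higher on both scales, and *Myl2* (0.19) and *Myl3* (-0.29) were not called. Atrial markers gave only *Sln* as a DEG of 8, with medians of 0.56 and 0.03. Markers of tissues next to the E10.5 heart mostly did not reach the expression limit, and the part of such tissue in these samples was not tested. Of 19 skeletal muscle markers on the array, 3 reached the expression limit, and all 3 were higher on both scales (medians 1.61 and 1.08). Of these *Tnni2* was called, at 7.02, 6.63 and 5.99 at E10.5 and 3.38, 3.95 and 4.09 in young adult hearts. *Myod1* stayed below 5, at 2.54, 2.72 and 2.79 at E10.5 and 2.81, 2.78 and 3.23 in young adult hearts. Of 19 foregut and airway markers on the array, 8 reached the limit and 1 was called higher, the simple epithelial keratin *Krt8* at 3.27 ± 0.19. The epithelial adhesion genes *Epcam* and *Cdh1* were at -0.23 and -0.65. Of 24 markers of pharyngeal and other non-cardiac mesenchyme on the array, 7 reached the limit, with 0 called higher and 1 lower. *Hoxa5* read 5.92, 5.62 and 5.94 at E10.5 and 7.06, 7.01 and 6.73 in young adult hearts. Of 21 neural crest, glial and neuronal markers on the array, 9 reached the limit. *Nefl* (2.97) and *Gap43* (2.38) were called higher and *S100b* (-2.21) and *Stmn2* (-2.13) lower, with 1 higher and 2 lower after centring (medians 0.27 and -0.26). *Sox10* read 4.76, 4.57 and 4.87 at E10.5 and 5.45, 5.84 and 6.19 in young adult hearts.

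The stages between showed when the lists parted from their E10.5 levels. On the deposited scale, the mean level of the mitosis list went from 7.84 at E10.5 to 7.16 at E16.5, 6.4 at E19.5 and 4.41 in young adult hearts. The largest step between neighbouring stages was the last. That step spans birth and the time to 10 weeks of age, while the embryonic stages lie a day apart, so step sizes do not compare rates. Primitive globins were already at 3.56 at E17.5, against 3.49 in the adult. The mature capillary list averaged 4.33 in E10.5, 5.74 in E14.5, 7.84 in E19.5 and 9.11 in young adult hearts. Antigen presentation stayed between 4.36 and 4.88 before birth and was at 7.10 in young and 8.09 in old adult hearts. Among single genes, *Tnni1* was still at 9.88 at E19.5, while *Myom2* had reached 10.24 by E16.5 and *Ckmt2* 6.35. These courses are descriptions of stage means over 3 arrays.

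**Figure D5:**
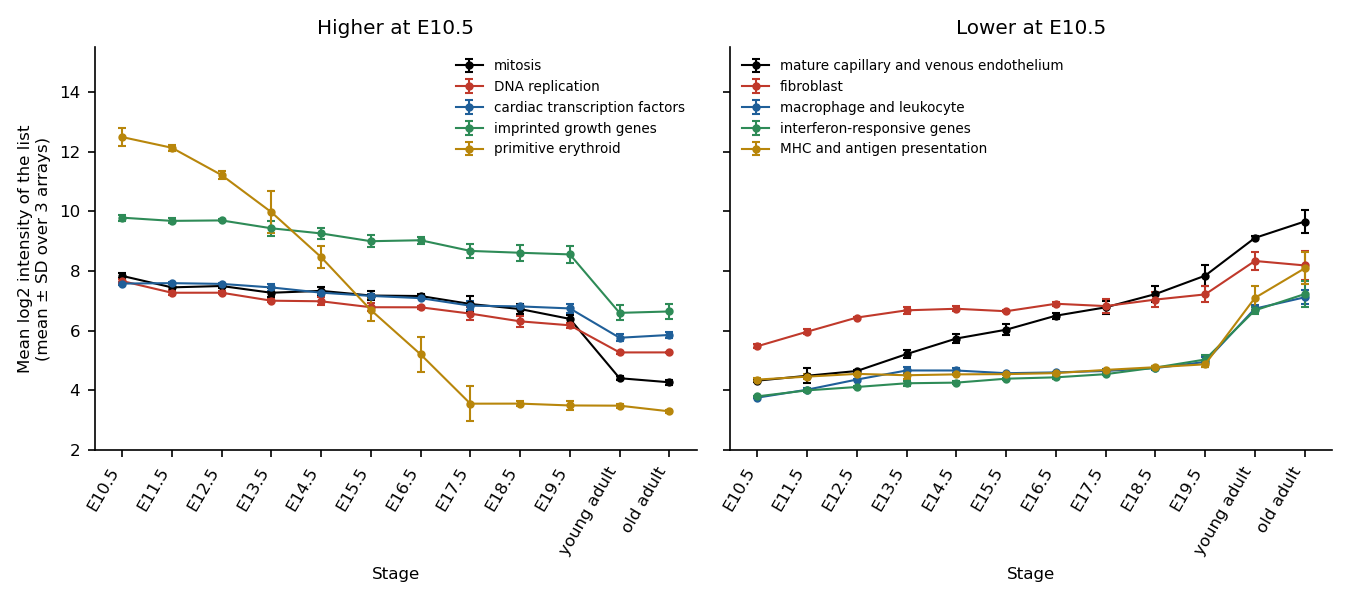
Mean log2 intensity of the expressed genes of 10 lists at each of the 12 stages (mean with SD over 3 arrays), for lists higher at E10.5 (left) and lower at E10.5 (right). The mitosis line ends at 4.41 in young adult hearts from 7.84 at E10.5, and the primitive red cell line is flat from E17.5 on.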

How the data were processed

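Poly(A) RNA of mouse hearts was measured on 3′ oligonucleotide Affymetrix mouse arrays, and the deposited values are log2 intensities per probe set that the authors summarized by RMA, for which the labels also name the Affymetrix Expression Console and Partek 6.6. RMA scales arrays to each other, and differences in total RNA between stages are lost in it. The added transcripts and the median of probe sets with a mean above 5 still differed between the stages, as given above. Over all probe sets the median was 4.01 at E10.5 and 4.13 in young adult hearts. Groups were taken from the sample labels, and all columns of the table were matched to samples by title.

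Probe sets were named by the symbols in the table, 551 of which were restored through their gene identifiers. A linear model with the 12 stage means was fitted to all 36 arrays (limma 3.58.1, R 4.3.3), with Benjamini-Hochberg adjustment over all 45101 probe sets and prior degrees of freedom of 6.96. All stages thereby share an estimate of the spread, and p-values measure the spread between samples of a stage. Each gene was given by its probe set with the highest mean over both stages. DEGs were expressed (mean above 5 in 1 or more stages), with an adjusted p below 1e-05 and a log2 difference over 2 in either direction. The fit was repeated after centring each array on the median of probe sets with a mean above 5 over all arrays. These are not the same set as the probe sets counted as expressed.

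The fit was also run on simulated data for the E10.5 and young adult comparison, in which 200 probe sets of 45101 were changed. Noise was independent between probe sets, the changes were 3 on the log2 scale in either direction, and the stages had the same scale. Of the 200, 198 were recovered with 0 false calls. Because that simulation held no scale difference between stages, it cannot show how accurate the calls are in the real data. Differences within arrays were tested with an exact two-sided permutation test, and exact tests of 3 against 3 arrays cannot go below p = 0.1. Tables and plots were made with Python 3.11.15, pandas 2.3.3, numpy 2.4.6 and matplotlib 3.10.9.

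The comparison, the 32 functional lists, the 18 cell type lists and the gene pairs were chosen with earlier results of these data known. Named by rule were the 10 highest and 10 lowest DEGs without overlap, up to 3 highest and 3 lowest DEGs of each list, the genes of the pairs, the first 3 markers of each cell type and the sex-linked *Xist*, *Ddx3y* and *Eif2s3y*. A few genes that the rule or the lists would name are not reported here. Alternatives were other scalings, other probe set choices, the 6 arrays alone, a log2 limit of 1 and leaving out each array.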

Additional observations from a re-analysis of the deposited data

How the results depend on the processing

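After centring on probe sets with a mean above 5 over all arrays, 515 genes were called higher and 922 lower in place of 1041 and 563. Centring on all probe sets gave 1219 and 495, quantile scaling 664 and 707, a fit to the 6 arrays alone 641 and 386, and a log2 limit of 1 gave 2666 higher and 1305 lower. For E11.5 minus old adult, a fit to its 6 arrays alone gave 336 higher and 256 lower, and a log2 limit of 1 gave 1900 and 1289. Leaving out each array in turn gave 971 to 1136 higher and 529 to 569 lower genes for E10.5 minus young adult, 637 to 733 and 599 to 668 for E11.5 minus old adult, and 3307 to 3431 higher and 2910 to 2994 lower on both scales. List medians that turned their sign after centring were sarcomere proteins (-0.33), cell cycle inhibitors (-0.18), cytosolic ribosomal proteins (-0.36), mitochondrial ribosomal proteins (-0.15), the citric acid cycle (-0.39), creatine kinase and energy transfer (-0.23), immediate early genes (-0.41) and neural crest markers (-0.26). Under quantile scaling those of sarcomere proteins (-0.029), cell cycle inhibitors (-0.064), mitochondrial ribosomal proteins (-0.0585), the citric acid cycle (-0.23), energy transfer (-0.12), immediate early genes (-0.0405) and neural crest markers (-0.17) turned. With another choice of probe set the neural crest median was -0.38, and leaving out each array gave citric acid cycle medians from -0.033, without E10.5 replicate 2, to 0.34. The causes of these turns were not tested beyond the shift of 0.53 that centring removes. Of 164 named genes called, 121 stayed called under all 11 alternatives to the scaling, the samples and the left-out arrays. No paired analysis was possible because the young adult arrays carry no replicate number and are labelled female, male and mixed. With 3 arrays a stage, the standard error of a difference was mostly 0.2 to 0.4, and genes whose low stage lies under 5 are bounded by the array's floor.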

Other observations

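Of the 1604 DEGs, 1184 belonged to none of the 50 gene lists. The genes named here were picked after their values were seen. Lower at E10.5 were the enzymes *Fmo1* (-6.21), *Ces1d* (-5.92), *Adh1* (-5.55), *Xdh* (-5.48), *Sult1a1* (-5.38) and *Aox1* (-4.28). So were the muscle genes *Lrrc2* (-6.05), *Hspb6* (-5.95) and *Nrap* (-4.19), and the transcription factors *Nfix* (-4.74) and *Klf9* (-4.58) were lower as well. On the embryonic side stood the kinase subunits *Cks2* (5.33) and *Cks1b* (4.70), the heparin-binding growth factor *Mdk* (4.68), the guidance genes *Slit2* (4.33) and *Robo1* (4.05) and the sterol synthesis enzymes *Cyp51* (3.76) and *Sqle* (3.69). *Slit2* read 8.46, 8.94 and 8.09 at E10.5 and 4.97, 4.45 and 3.09 in young adult hearts, and *Cyp51* read 6.79, 6.62 and 6.57 at E10.5 and 3.06, 2.73 and 2.92 in young adult hearts.

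Among 158 expressed long non-coding RNA genes, 10 were higher and 10 lower (6.33% each), against 9.35% and 5.06% of protein-coding genes. Besides *H19*, *Rian* and *Meg3*, the higher ones included *Dancr* (3.23), *Mir17hg* (2.65), *Snhg1* (2.33) and *Snhg3* (2.32), of which *Mir17hg* is the host transcript of a microRNA cluster. Lower at E10.5 were *Neat1* (-6.68), *Plet1os* (-4.85) and *Lincpint* (-3.74). *Neat1* read 5.05, 5.4 and 5.69 at E10.5 and 12.37, 11.97 and 11.85 in young adult hearts, with the female array the highest.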
